A study of Arabidopsis thaliana with 14 samples.

Results

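The comparison described here set the growing shoot meristem of male sterile Arabidopsis thaliana against the growing shoot meristem of fertile plants, with 1 Affymetrix array on each side. Of 21195 loci with values, 11098 were described, namely those that exceeded the array median in whichever array was higher. The rule used no difference between the arrays to choose loci. The series held 14 arrays, 10 of whole inflorescences and 4 of meristems, and it examined plants that were growing, arrested, or arrested and then stripped of fruits. All values below are log2 levels or differences of log2 levels, and every difference is sterile minus fertile unless another order is given. Levels were compared only within a gene, since probes of different genes have different brightness.

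The sterile array came from plants homozygous for ms1-1, labelled as sterile and growing. The fertile array came from plants labelled as ms1-1 co-segregant, fertile and growing, which bore fruit. The growth protocol names Landsberg erecta and ms1-1 plants, grown on soil in 16 h of light at 20 °C and 8 h of dark at 16 °C. Meristematic regions were cut by laser from sections of inflorescences pooled from at least 20 plants per array, and their RNA was amplified before labelling. The other 2 meristem arrays, used below as context, came from arrested co-segregant plants and from such plants 48 h after their fruits had been removed. No meristem group had a replicate, so its values carry no error and no test was made between meristems. Genotype, the presence of seeds and fruits, and the individual array cannot be told apart in this design.

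MS1 encodes a transcription factor of the tapetum, the nurse tissue of the anther, and its loss leaves plants without working pollen and hence without seeds. An inflorescence meristem keeps a pool of dividing stem cells, marked by regulators such as STM, WUS and CLV3, and makes flower primordia on its flanks. In fertile Arabidopsis the meristems of a plant stop making flowers after a set of fruits has formed, whereas sterile plants go on for longer, and both meristems compared here were taken while still active. Arrested buds of plants commonly carry transcripts of dormancy, low sugar and abscisic acid response.

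The dissected tissue carried the markers of a shoot meristem. STM, a homeodomain factor that keeps meristem cells undifferentiated, read 11.40 in the sterile and 11.25 in the fertile array, and all 4 meristem arrays (11.25 to 11.41) exceeded all 10 inflorescence arrays (8.23 to 9.40). The same complete separation held for 4 of 10 markers, the others being the stem cell peptide CLV3, the inflorescence identity gene TFL1 and the boundary gene CUC3. CLV3 read 8.47 and 8.80, and WUS, which maintains the stem cells, read 8.21 and 8.61, in the sterile and fertile arrays in that order. KNAT1, KNAT6, CUC2, ATH1, CLV1 and WUS overlapped with the inflorescence range. No row of the values stands for MS1, and the label of the sterile plants could not be checked against it.

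Markers of other cells had similar list means in both arrays, with the widest gap in photosynthesis genes, which averaged 9.15 in the sterile and 8.84 in the fertile meristem. The mean over 20 anther and tapetum markers was 6.71 in the sterile and 6.77 in the fertile meristem, against 8.54 and 10.76 in sterile and fertile growing inflorescences. Of these 20 markers, 16 lay at or below the array median in both meristems, and none read 0. In the vascular list 13 of 14 genes lay at or below the median in both arrays, with means of 6.69 and 6.59, and the epidermis means were 8.18 and 8.30. The mean over 11 meiosis markers was 7.69 and 7.63. Every meristem array (7.14 to 7.69) exceeded every inflorescence array (5.35 to 6.45) in this mean, so such a separation was not limited to meristem markers. Photosynthesis, vascular and epidermis means were instead lower in every meristem array than in every inflorescence array. In the microarray control rows the ubiquitin 3′ probe set exceeded the 5′ probe set by 1.30 in the sterile and 1.33 in the fertile array. The matching actin difference was -2.89 and -0.29, between probe sets that also differed in the arrested (-1.78) and fruit removal (-1.95) arrays. The actin 3′ row itself was low, at 3.88 in the sterile and 6.69 in the fertile array. For GAPDH a 5′ row read 5.72 and 4.19, the middle row 7.65 and 7.87, and another 5′ row 8.97 and 8.77. In such pooled tissue, fewer cells of a type and less RNA per cell cannot be told apart.

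The sterile and fertile growing meristems were close to each other. The array medians were 7.49 and 7.45, and Pearson's r over all loci was 0.975, a description of 1 pair of arrays. Over the 11098 loci the median difference was -0.01, and 91.5% of loci lay within 0.5 of 0. Only 58 loci (0.523%) were at least 2-fold higher in the sterile array and 54 (0.487%) at least 2-fold lower. Of the 58, 33 passed the level filter only through the sterile array, and of the 54, 45 passed only through the fertile array. At 4-fold the counts were 5 (0.0451%) and 4 (0.036%).

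This distance lay within the span of the replicate pairs. The level filter was applied to each pair of arrays anew, which left 10895 to 11624 loci. In all, 1.01% of loci were at least 2-fold apart in the sterile and fertile meristems, while the replicate pairs of whole inflorescences gave 0.67%, 1.12% and 3.39% at 6 h, 24 h and 48 h after fruit removal and 13.2% in arrest. The arrested meristem stood far from both growing meristems, with 16.6% of loci 2-fold apart from the sterile and 13.4% from the fertile array. The fruit removal meristem lay close to both (1.24% and 1.48%). All microarray control rows for bioB, bioC, bioD and cre were also highest in the arrested array. A 3′ row for bioB read 9.01, 9.67, 11.14 and 9.32 in the sterile, fertile, arrested and fruit removal meristems. A 3′ row for bioC read 10.16, 10.66, 12.11 and 10.37. A 3′ row for lys, which lay below the array medians, read 6.97, 6.83, 6.63 and 6.82. The meristem array medians spanned only 7.43 to 7.49. In every bioB, bioC, bioD and cre row the sterile array also read lower than the fertile array. A 3′ row for cre read 12.65 in the sterile and 13.08 in the fertile meristem. The bearing of these offsets on sterile against fertile, or on comparisons with the arrested array, here and below, was not tested. Whole inflorescences of the same genotypes and growth states were 2-fold apart at 13.7% of loci. Inflorescence RNA was not put through the same amplification, so the replicate pairs are a yardstick from another tissue and protocol. The titles of the arrested pair carry the letters r and g, whereas those of the other replicate pairs all carry g. The meaning of these letters is not given, so the 13.2% may hold more than replicate spread.

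**Figure D1:**
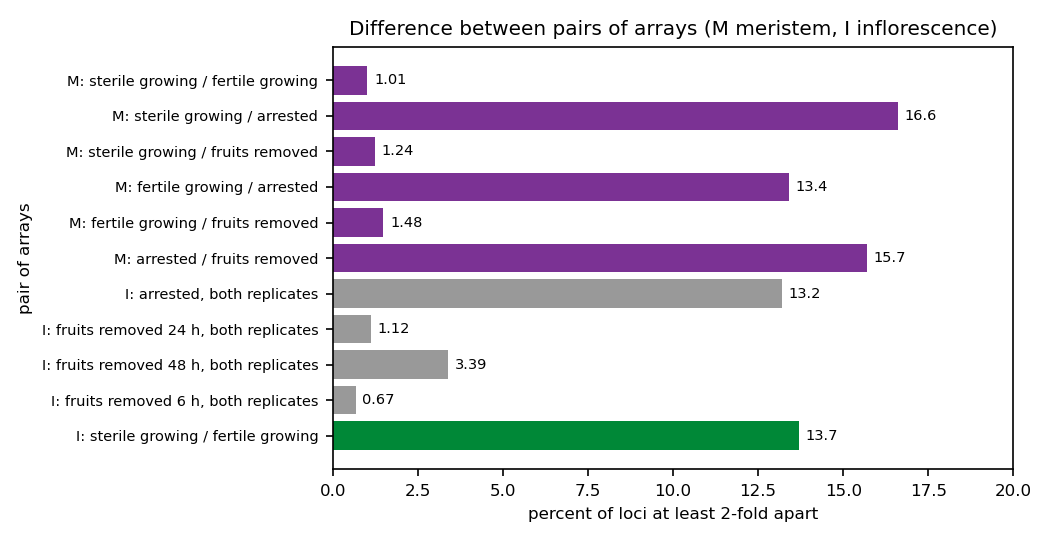
Percent of loci at least 2-fold apart in each pair of arrays (bars), among loci above the median in the higher array of that pair, for the meristem arrays (M, purple), replicate pairs of whole inflorescences (I, grey) and the sterile and fertile growing inflorescences (green). The sterile and fertile growing meristems differed at 1.01% of loci, between the 0.67% and 13.2% of the replicate pairs. The 13.2% is from the arrested pair, whose titles carry the letters r and g, whereas the other replicate pairs all carry g.

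Most of the larger differences lay at low levels. Among loci with a mean level under 8, 74 of 2560 (2.89%) were at least 2-fold apart, and the share was 0.699% from 8 to 9 and 0.289% from 9 to 10. Above a mean of 11 none of 358 loci passed 2-fold. RD29A and LTI30 were the 4-fold differences with the highest levels on the lower side, and AT5G15400 on the higher side.

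**Figure D2:**
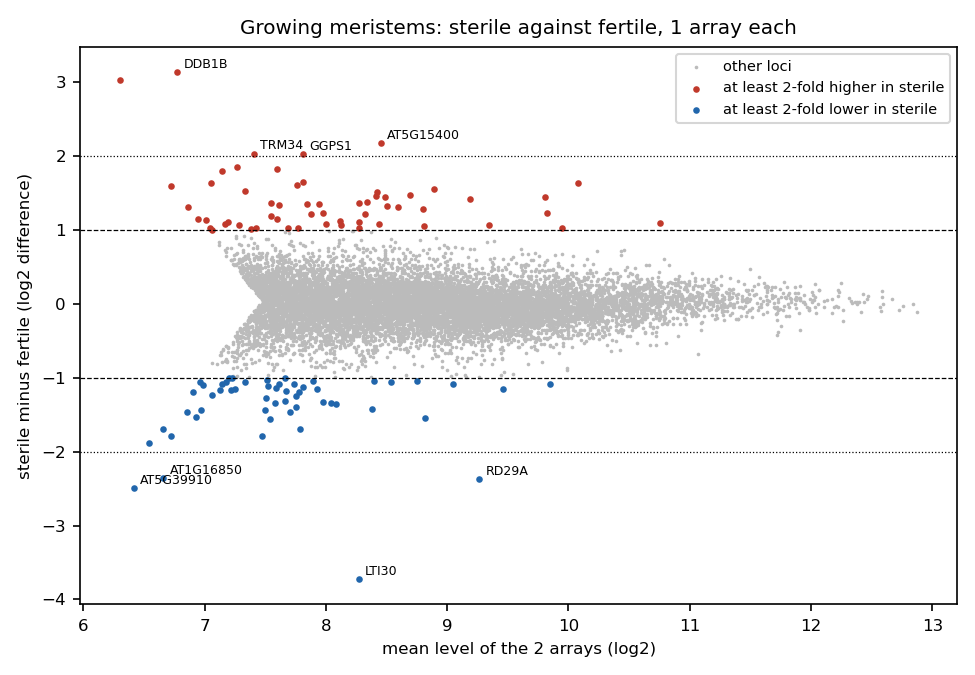
Difference between the sterile and the fertile growing meristem (vertical axis, log2) against the mean level of the arrays (horizontal axis, log2), 1 point per locus. Dashed lines mark 2-fold and dotted lines 4-fold. The 58 red and 54 blue points pass 2-fold, and the cloud narrows as the level rises.

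The genes that were lowest in the sterile relative to the fertile meristem had varied functions, and the lowest of all was LTI30. This gene, a dehydrin that accumulates in cold and after abscisic acid, read 6.41 in the sterile and 10.13 in the fertile meristem, against 12.07 in the arrested and 7.56 in the fruit removal meristem. The sterile array was thus the lowest of the 4 and the fertile array the second highest, a difference of -3.72. RD29A, a stress gene driven by both the cold and the abscisic acid pathways, read 8.08, 10.45, 11.92 and 9.26 in the same order (-2.37). COR413IM1, a cold-induced protein of the chloroplast inner envelope, read 6.76, 8.32, 11.62 and 7.76 (-1.56). In each of these 3 genes the arrested array was the highest and the sterile array the lowest.

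A dormancy gene and a senescence gene stood among the same 15. DRM2 (AT2G33830), of the dormancy-associated family of small proteins, read 8.04 in the sterile, 9.59 in the fertile, 11.72 in the arrested and 6.11 in the fruit removal meristem, a difference of -1.55. NAP, a NAC transcription factor that promotes leaf senescence, read 6.78, 8.22, 9.79 and 6.70 (-1.44). J11, a chloroplast DnaJ protein, read 6.58, 8.37, 10.36 and 6.93 (-1.79). In these genes the fertile array lay between the arrested array and the pair of low arrays, and in DRM2 and NAP the fruit removal array was lower than the sterile one. ALPHA DOX2, a fatty acid dioxygenase, read 5.60, 7.49, 8.67 and 7.08 (-1.89), and the unnamed locus AT1G16850 read 5.48, 7.84, 9.71 and 5.97 (-2.36). NAP belonged to a list of senescence and chlorophyll breakdown genes. Of the 18 genes of that list with values, 11 were higher and 7 lower in the sterile meristem (median 0.06).

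The remaining 7 of the 15 lowest did not have their peak in the arrested array. AT5G39910 read 5.17, 7.66, 5.66 and 6.20 in the sterile, fertile, arrested and fruit removal meristems (-2.49), with the fertile array alone high. TPR13 (-1.79), the cytochrome P450 gene CYP705A18 (-1.69), AT1G43760 (-1.53), the plasma membrane proton pump gene HA3 (-1.47) and NET3C of the actin-binding NET family (-1.46) likewise had the fertile array as the highest and the sterile array as the lowest of the 4. AT3G05730 (-1.69) was highest in the fertile array at 7.50 and lowest after fruit removal at 5.15. Of all 15, 8 were highest in the arrested array, in 6 of which the sterile array was the lowest.

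The genes that were highest in the sterile relative to the fertile meristem had varied functions. DDB1B, a subunit of CUL4 ubiquitin ligases that also act in DNA damage repair, read 8.34 in the sterile meristem and 5.21, 5.31 and 5.52 in the fertile, arrested and fruit removal meristems. The sterile array alone was high, and the difference of 3.13 was the largest in this direction. AT5G44170 read 7.82 in the sterile and 4.79 in the fertile array (3.03), but the arrested and fruit removal arrays read 7.69 and 7.72, so that the fertile array alone was low.

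A fertile array standing alone on the low side was also seen in several others. AT5G15400 read 9.54, 7.37, 8.76 and 9.48 in the sterile, fertile, arrested and fruit removal meristems (2.17). GGPS1, a geranylgeranyl diphosphate synthase that feeds plastid isoprenoids, read 8.82, 6.80, 8.16 and 8.62 (2.02), and the receptor-like kinase gene CRLK2 read 8.04, 6.24, 7.97 and 7.67 (1.80). TRM34, of a family that recruits TON1 to microtubules, read 8.42, 6.39, 8.49 and 6.71 (2.03), with the fertile and fruit removal arrays low. AT2G39390 (1.63) and AT2G14880 (1.60) were lowest in the fertile array and nearly level in the sterile and fruit removal arrays.

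In the other genes of the 15 the sterile array was the highest of the 4. EXL5 (AT2G17230), an EXORDIUM-like gene, read 8.63 in the sterile meristem against 6.45 to 7.19 in the other 3, a difference of 1.64 from the fertile array. AT1G62480 read 9.67, 8.12, 6.56 and 6.20 in the sterile, fertile, arrested and fruit removal meristems (1.55), and AT2G37440 read 7.87, 6.24, 5.53 and 6.05 (1.63). The lipase gene LTL1 (8.19 against 6.34, 1.85), AT1G08940 (1.82), the aldehyde dehydrogenase gene ALDH11A3 (1.59) and the zinc finger homeodomain gene HB23 (1.53) had the sterile array highest and the fertile array lowest. Of the 15 highest, 9 had the sterile and the fertile array at opposite ends of the 4, 3 had the fertile array alone outside the other meristems' range and 3 the sterile array alone.

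**Figure D3:**
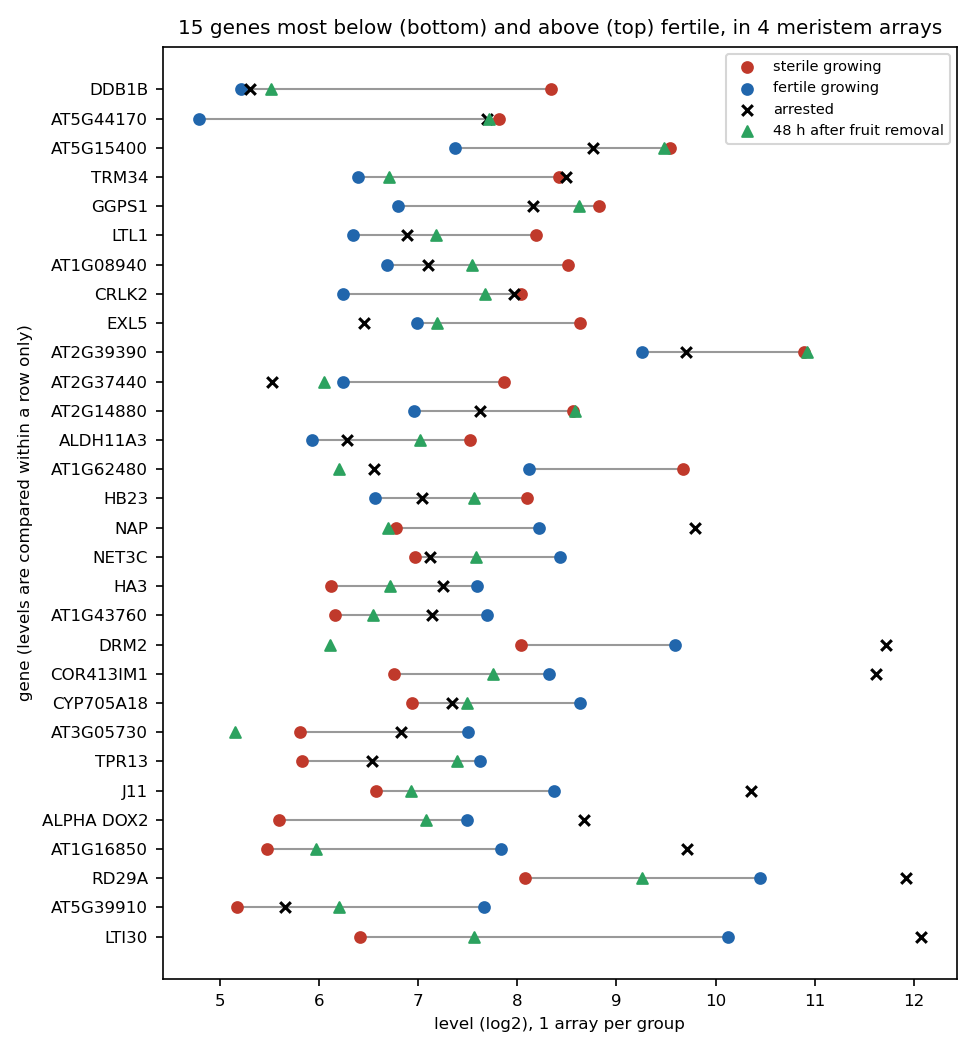
Level (log2) of the 15 genes furthest below and the 15 furthest above the fertile meristem, in the 4 meristem arrays, 1 array per group. Grey lines join the sterile (red) and fertile (blue) arrays. In 8 of the 15 lower genes the arrested array (black cross) is the highest, and in DDB1B the sterile array alone is high.

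The arrested and fruit removal meristems were then compared with each other, since that comparison shares no array with sterile against fertile. Fruit removal minus arrested was at least 2-fold higher at 936 of the 11098 loci (8.43%) and at least 2-fold lower at 590 (5.32%). Of the 112 loci 2-fold apart between sterile and fertile, 74 had a mean level under 8. Many had passed the level filter only through the array where they were higher (45 of the 54 lower and 33 of the 58 higher loci). The shares over all 11098 loci are therefore not matched to these sets for level. Of the 54 loci lower in the sterile meristem, 22 (40.7%) were at least 2-fold lower after fruit removal than in arrest and 5 (9.26%) at least 2-fold higher. Their median difference after fruit removal was -0.52, against 0.10 over all 11098. Of the 58 loci higher in the sterile meristem, 14 (24.1%) were at least 2-fold higher after fruit removal and 3 (5.17%) at least 2-fold lower, with a median of 0.44.

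The named genes show which ones these were. Among the 15 lowest, 9 were at least 2-fold lower after fruit removal than in arrest, among them DRM2 at -5.61, LTI30 at -4.51, COR413IM1 at -3.86, AT1G16850 at -3.74, J11 at -3.43, NAP at -3.09 and RD29A at -2.66. CYP705A18 (0.15), NET3C (0.46), AT5G39910 (0.54) and TPR13 (0.85) were not lower. Among the 15 highest only AT2G39390 was at least 2-fold higher after fruit removal (1.22), and TRM34 went the other way (-1.78). DDB1B (0.21) and AT5G44170 (0.03) hardly differed between these arrays.

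Whole inflorescences of the sterile and fertile growing plants gave a further set of arrays, again with 1 array on each side. There, limma fitted over all 10 inflorescence arrays took its spread from the replicate pairs of the other groups, and at a Benjamini-Hochberg adjusted p under 0.05 it called 33 of 21195 loci higher (0.156%) and 109 lower (0.514%) in the sterile array. The total of 142 became 858 without either arrested array, of which 466 were higher and the rest lower, so that most calls were then higher rather than lower. It was 71 without either 6 h array and 42 without either 24 h array. Whether replicate arrays came from separate plants is not stated, so these p-values measure only the spread between these samples. Among the loci described here, 793 (7.15%) were at least 2-fold higher and 343 (3.09%) at least 2-fold lower in the sterile inflorescence, whatever their test.

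Of the 54 loci lower in the sterile meristem, 14 (25.9%) were at least 2-fold lower and 4 (7.41%) at least 2-fold higher in the sterile inflorescence, and 3 were called lower by limma. Of the 58 higher loci, 11 (19%) were at least 2-fold higher and 2 (3.45%) at least 2-fold lower, and 1 was called higher. The sign was shared by 34 of the 54 (63%), where 31.9% of all 11098 loci were lower in the sterile inflorescence, and by 49 of the 58 (84.5%), where 67.5% of all were higher. As for fruit removal, the shares over all 11098 loci are not matched to these sets for level.

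**Figure D4:**
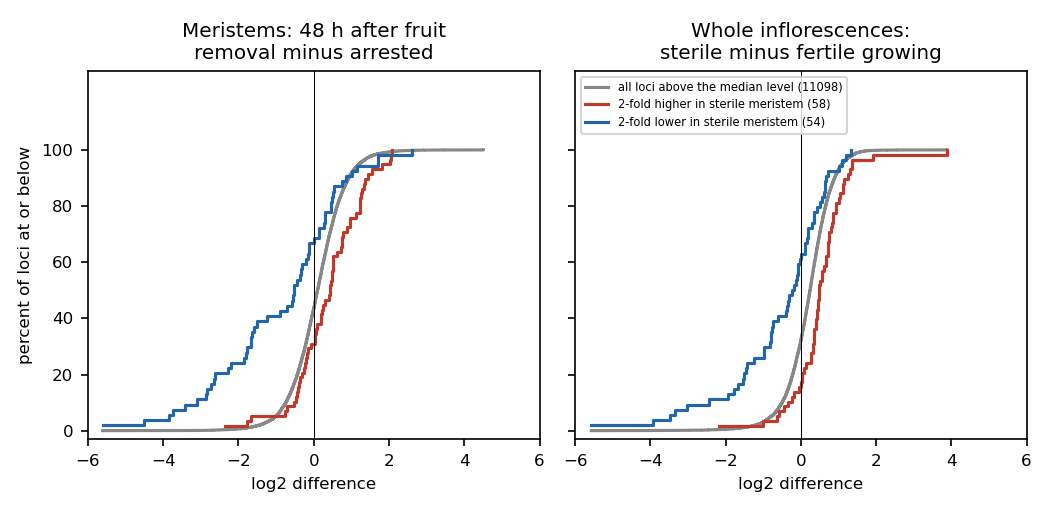
Cumulative percent of loci (vertical axis) by log2 difference (horizontal axis) for 48 h after fruit removal minus arrested meristems (left) and sterile minus fertile whole inflorescences (right), none of which are the arrays that chose the sets. The 54 loci lower in the sterile meristem (blue) extend to the left of all 11098 loci (grey), with medians of -0.52 on the left and -0.21 on the right, and the 58 higher loci (red) have medians of 0.44 and 0.48. The grey curves are not matched to these sets for level.

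The 4 loci that passed the test in inflorescences were DDB1B, LTI30, J11 and DRM2. DDB1B rose by 3.89 ± 0.31 (SE, limma adjusted p = 0.0023), from 4.85 in the fertile to 8.74 in the sterile inflorescence, and the arrested and fruit removal inflorescences lay between 4.70 and 5.44. The sterile arrays were therefore the only high ones for DDB1B in both tissues. LTI30 fell by 3.93 ± 0.35 (SE, limma adjusted p = 0.0039), from 10.52 to 6.59. Here the fertile inflorescence was the high array, since the arrested and fruit removal inflorescences read 5.29 to 7.39, whereas among meristems the arrested array was the highest.

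J11 fell by 3.48 ± 0.46 (SE, limma adjusted p = 0.0234), from 12.55 to 9.07, but it was not called when either 24 h array was left out (adjusted p = 0.0762). DRM2 fell by 5.57 ± 0.88 (SE, limma adjusted p = 0.0461), from 12.85 to 7.28. The DRM2 call was lost after median centring of the arrays, in a set limited to brighter loci, or without any 1 of the 6 h or 24 h arrays (adjusted p = 0.0505 to 0.119). NAP differed by -2.45 ± 0.49 and was not called (limma adjusted p = 0.087), but it was called without either arrested array (adjusted p = 0.0486). In those fits AT5G15400, AT1G08940 and HB23 were called as well (limma adjusted p = 0.0461, 0.0467 and 0.0432). RD29A read 9.77 and 11.29 in the sterile and fertile inflorescences and was not called either (-1.52 ± 1.41, limma adjusted p = 0.568). LTL1 and AT3G05730 had opposite signs in the tissues, and neither was called in inflorescences.

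Genes of cell division were level in both growing meristems. The replication list had a median difference of -0.05 over 20 genes, with none past 2-fold, and the mean over all 21 list genes was 9.53 in the sterile, 9.57 in the fertile, 8.64 in the arrested and 9.56 in the fruit removal meristem. The arrested array alone was low. ORC2 of the origin recognition complex read 9.12 and 8.87 in the sterile and fertile arrays, and the licensing factor CDT1A 9.26 and 9.53. Mitosis genes had a median of -0.06 with 15 of 20 slightly lower in the sterile array, among them the spindle protein TPX2 (9.95 and 10.36) and the cyclin CYCB2;2 (8.95 and 9.38). Of 5 D-type cyclins 4 were lower, CYCD3;1 by 0.45 at most, and histones had a median of 0.00 over 19 genes. In whole inflorescences the replication list had a median of 1.2, with none of its members called by limma.

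Meristem regulators were similar as well, with a median of 0.06 over 27 genes and none past 2-fold. The lowest was ATH1, a BELL homeodomain gene of the meristem and organ boundaries (7.84 in the sterile and 8.69 in the fertile array, -0.85), followed by CUC3 (9.01 and 9.76, -0.75). ATHB-15, a class III homeodomain-leucine zipper gene, was the highest at 0.45. The receptor kinase gene CLV1 read 10.91 and 10.62, and TFL1 read 11.76 and 11.52. CUC3 and ATH1 read 9.93 and 8.73 after fruit removal, near the fertile array, and 9.10 and 8.36 in arrest.

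Genes of floral identity and flowering time had a median of 0.02 over 20 genes. SPL15, a transcription factor that promotes flowering at the shoot tip, read 9.81 in the sterile and 8.96 in the fertile meristem, with 6.71 in the arrested and 8.54 in the fruit removal array. The sterile array was the highest and the arrested array was far below the rest. The petal and stamen identity gene PI read 9.18, 8.67, 6.65 and 8.60 in the same order, and LMI1, a regulator of floral fate, 8.17, 7.58, 7.13 and 8.00. SOC1, an integrator of flowering signals, ran the other way (8.82, 9.28, 11.32 and 10.22). Organ polarity and boundary genes had a median of -0.11, led by BOP2 (-0.61) and PTL (-0.59).

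The dormancy and low-sugar list was lower in the sterile meristem for 14 of 21 genes, and for 9 of the 12 that passed the level filter, with a median of -0.20 either way. Of these 12, 2 passed only through the fertile array. Beside DRM2, the trehalose phosphate synthase-like genes TPS8 (8.13, 8.99, 10.63 and 8.56 in the sterile, fertile, arrested and fruit removal meristems) and TPS10 (7.02, 7.81, 8.22 and 7.07) had the largest differences. The arrested array was the highest and the sterile array the lowest for both. The mean over all 21 list genes was 7.35, 7.66, 8.46 and 7.24. The same list had a median of -1.80 in inflorescences, where limma called 2 of 21 lower, beside 0.514% of all loci. These were DRM2, whose call was lost in 6 alternatives as given above, and HB40, which did not pass the level filter in the meristems. HB40 was not called in 8 of 12 alternatives. Some of these alternatives repeat the same fit, so such counts are not counts of independent checks.

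Abscisic acid genes had a median of -0.14 over all 27 genes with values, of which 17 were lower and 10 higher in the sterile meristem. Among the 13 that passed the level filter 11 were lower (median -0.32), and 3 of the 13 passed only through the fertile array. After RD29A the largest differences were in ERD10, a dehydrin (8.96 and 9.93, -0.97), and HAI1, a phosphatase induced by abscisic acid (9.01 and 9.93, -0.92). Both were highest in the arrested array, at 10.93 and 11.81. HAB2, a phosphatase that restrains the same signal, was higher in the sterile array by 0.60. In the list of early responses to wounding and touch, 11 of 20 genes were lower and 9 higher, with a median of -0.08. Of the 6 that passed the level filter, 4 did so only through the fertile array, which fixed the sign of these 4 in advance. All 6 were lower in the sterile array (median -0.53). TCH4, a touch-induced cell wall enzyme, read 6.80 and 7.86 (-1.06), and the zinc finger genes SZF1 and SZF2 differed by -0.62 and -0.58.

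Flavonoid synthesis had the highest list median, 0.46, with 9 of 10 genes higher in the sterile meristem, and a median of 0.36 over all 15 genes with values, 12 of them higher. TT4, the chalcone synthase that opens the pathway, read 11.30 in the sterile, 10.21 in the fertile, 9.74 in the arrested and 11.30 in the fruit removal meristem. TT5, the chalcone isomerase of the next step, read 9.88, 8.81, 8.59 and 10.03. FLS1, which makes flavonols, read 9.38, 8.69, 8.54 and 9.50, and CHIL, a chalcone isomerase-like protein, 8.51, 7.86, 7.03 and 8.99. In all 4 genes the sterile and fruit removal arrays were the high pair and the fertile and arrested arrays the low pair. TT4 (1.09) and TT5 (1.07) were the only list genes above the median level at least 2-fold higher in the sterile array. In inflorescences TT4 differed by -0.45 ± 0.94 and TT5 by 0.41 ± 0.69, and limma called none of the list.

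Photosynthesis genes were slightly higher in the sterile meristem in 21 of 23 cases, with a median of 0.26 and none past 2-fold. GAPB of the Calvin cycle read 8.17 and 7.22 (0.95), the photosystem I subunit gene PSAK 10.76 and 10.10 (0.66), and the antenna gene LHCB3 9.99 and 9.40 (0.59). The mean over all 27 list genes was 9.15 in the sterile, 8.84 in the fertile, 9.31 in the arrested and 8.72 in the fruit removal meristem, and 11.68 to 13.12 in inflorescences. In inflorescences the sterile array was not higher, with a median of -0.48. The part of green tissue in the dissected regions in this difference was not tested.

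Hormone lists were near 0, with single members apart. Auxin genes had a median of -0.08 over 14 genes. GH3.3, which conjugates auxin to amino acids and is itself induced by auxin, read 8.51 in the sterile and 9.59 in the fertile meristem (-1.08), with 8.36 in arrest and 9.52 after fruit removal. GA20OX2, a gibberellin synthesis gene, read 8.01 in the sterile array against 8.72 to 9.07 in the other 3 (-1.06 from the fertile array), in a list with a median of -0.12. The DELLA gene RGL3 differed by -0.68 and RGL1 by 0.40.

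Cytokinin genes had a median of -0.02, with the degrading enzyme CKX2 at 0.64 and AHP6, an inhibitor of cytokinin signalling, at -0.49. Of the jasmonate genes, the synthesis gene AOS differed by 0.66 and the factor MYC2 by -0.53 around a median of -0.03. Over all 35 lists, 360 members lay above the median level, of which 2 were at least 2-fold higher (TT4, TT5; 0.556%, against 0.523% of all 11098 loci) and 6 at least 2-fold lower (1.67%, against 0.487%; RD29A, DRM2, NAP, GH3.3, GA20OX2, TCH4). In 28 lists no member passed 2-fold. The lists were chosen with earlier results of these data known, so their shares are not independent of the data. NAP and TCH4 passed the level filter only through the fertile array.

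**Figure D5:**
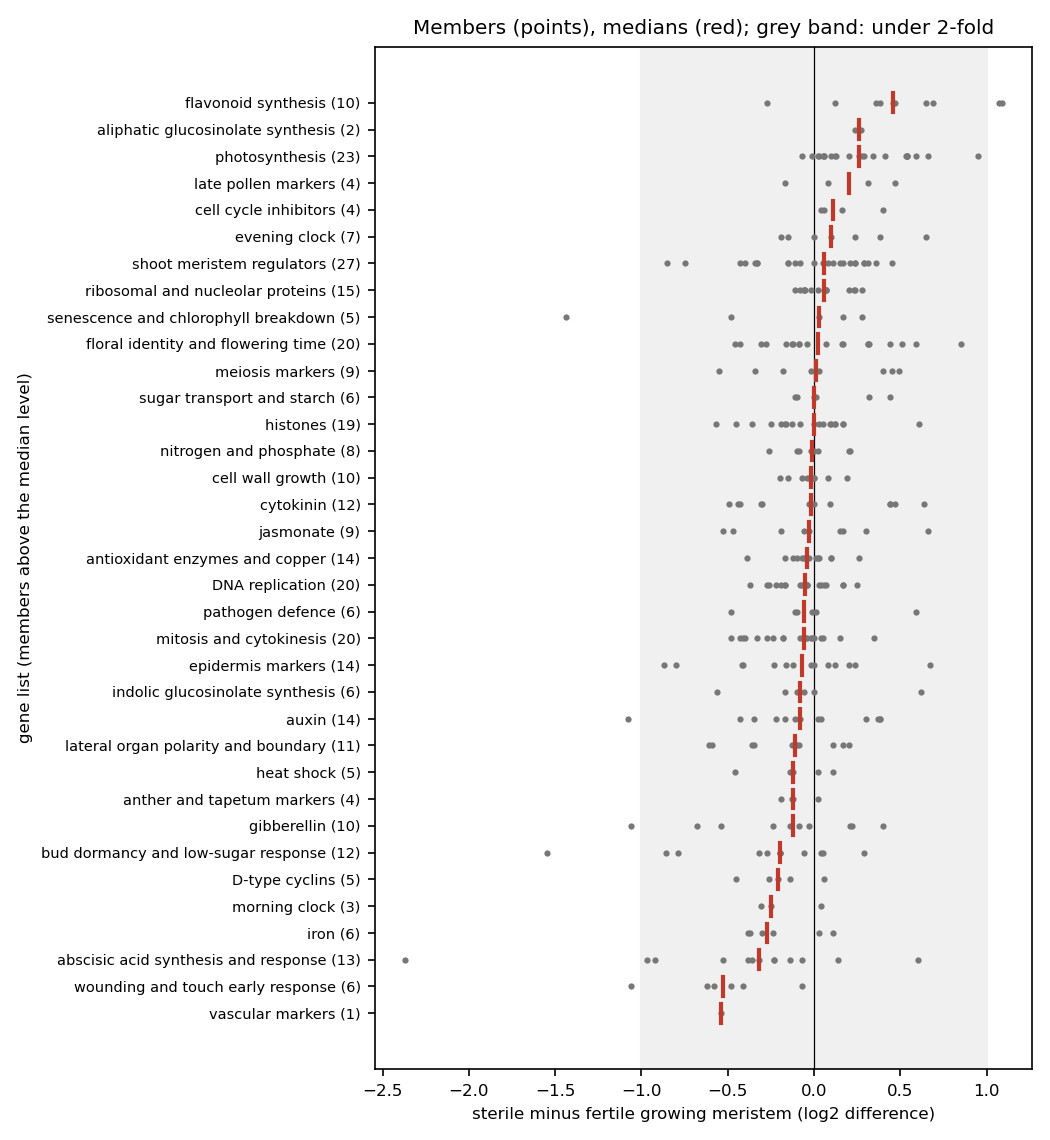
Difference between the sterile and fertile growing meristem (horizontal axis, log2) for the members of 35 gene lists whose level lay above the array median (grey points, number in parentheses), with each list's median (red bar). The grey band covers differences under 2-fold. Most points lie in the band, flavonoid synthesis has the highest median (0.46), and RD29A (-2.37) is the point furthest left.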

How the data were processed

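Values were taken from the deposited series matrix and read as log2. The scale is not stated per the labels and was inferred from the range, and how the authors normalized them is not given in the sources used. No further scaling was applied. Of 21253 rows, 58 control rows were left out. RefSeq's TAIR10.1 gene table held 21097 loci and not the other 98, and its symbols were used. Per the labels' protocols, meristem RNA came from PicoPure extraction and RiboAmp Plus amplification. The number of arrays limits the precision.

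Meristem differences are single differences between arrays, with no test. The 10 inflorescence arrays in 6 groups were fitted with limma 3.58.1 (lmFit, contrasts.fit, eBayes; R 4.3.3), two-sided, with Benjamini-Hochberg adjustment over 21195 loci, and the code was tested on simulated data. Values after ± are standard errors. "Rose" and "fell" mark limma calls.

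Named genes were the 15 largest differences each way and, in each of 35 gene lists, up to 4 members with the largest absolute difference, all above the median of the array with the higher value, and defining markers. Of 699 list members 628 could be used, since 58 lacked values and the gene table named 13 differently. Members and lists were chosen with earlier results of these data known. Promoter motifs were not analysed here. Alternatives were 4 other scalings, other level filters, other fold thresholds and, for inflorescences, other fits and leaving out each replicate. Leaving out either array of a replicate pair gave the same counts. The r or g term gave the same counts as leaving out an arrested array, so these alternatives are not all distinct.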

Additional observations from a re-analysis of the deposited data

Results flagged for a closer look

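The difference between sterile and fertile plants ran in opposite directions in the meristem and in the whole inflorescence for 2 of the 30 genes with the largest meristem differences, by at least 1 in each tissue. AT3G05730 differed by -1.69 in the meristem (5.81 in the sterile and 7.50 in the fertile array) and differed by 1.19 in the inflorescence (6.18 in the sterile and 4.99 in the fertile array). LTL1, a lipase gene, differed by 1.85 in the meristem (8.19 and 6.34) and by -1.01 in the inflorescence (11.84 and 12.85). The difference between tissues was not tested, as each side had 1 array, and neither gene was called in inflorescences by limma (adjusted p = 0.214 and 0.432).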

How the results depend on the processing

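The count of loci at least 4-fold apart in the meristems was 9, and it became 16 after quantile normalization of all 14 arrays, 32 with no filter on low values and 3 with the higher value above the 75th percentile. It was 112 at 2-fold and 3 at 8-fold. The 2-fold count of 112 became 372 without the filter and 31 above the 75th percentile. The share of 4-fold loci higher in the sterile array was 55.6%, against 42.9% after quantile normalization of the 4 meristem arrays or median centring and 44.4% after cyclic loess, so the balance of directions depended on the scaling. Without the filter the medians became 0.18 for vascular markers, 0.17 for heat shock genes and -0.08 for wounding genes, and the other 32 list medians moved by less than the replicate spread. Of 161 named values, 20 moved by more than that spread after quantile normalization of all 14 arrays and none under the other 3 scalings, and none changed sign where it moved. The shares of 2-fold loci with matching differences in other arrays, recomputed under 4 scalings chosen after seeing the data, gave 39% to 42.6% of the lower loci for fruit removal and 21% to 24.6% for inflorescences, and at most 26.2% and 18.5% of the higher loci. The limma count of 142 in inflorescences became 858 with the r or g letter of the sample titles as a term and 44 for loci with a mean above the median. Leaving out single replicates gave 42 to 858 loci: 858 without either arrested array, 71 without either 6 h array and 42 without either 24 h array. LTI30 and DDB1B remained called in every fit that held them. No paired analysis was possible because the meristem groups had 1 array each, as had both growing inflorescence groups.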

Other observations

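Among the lists not described above, evening clock genes had a median of 0.10, with ELF4 at 9.29 in the sterile and 8.64 in the fertile meristem. Morning clock genes had a median of -0.25 over 3 genes and -0.20 over all 8 with values. Of the 3, 1 passed the level filter only through the fertile array. Iron genes had a median of -0.27 over 6 genes, 1 of which passed only through the fertile array, and -0.14 over all 10 with values. The ferritin gene FER1 (9.04 and 9.42) and the regulator PYE (7.24 and 7.61) led this list. Meiosis markers lay around 0 (median 0.01), with the recombinase gene DMC1 at 8.56 and 8.07 and ZYP1b at 7.78 and 8.33. In indolic glucosinolate synthesis the sterile meristem did not stand apart (median -0.08). In inflorescences limma called 3 of 11 genes of this list higher in the sterile array, beside 0.156% of all loci, and the count of calls changed with the fit as given above. SOT16, a sulfotransferase of that pathway, read 9.50 and 9.67 in the sterile and fertile meristems and 10.97 and 8.76 in the inflorescences.

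Some loci past 2-fold lay next to each other in the gene table's order (chosen after their values were seen). AT5G44170 (3.03) and its neighbour RLT2 (1.32) were both higher in the sterile meristem, as were AT2G37440 (1.63) and UMAMIT13 (1.07), while PAP25 (-1.19) and BGAL3 (1.12) differed in opposite directions. Just inside the 2-fold threshold lay AT4G38700 (1.00) and AT5G49640 (-1.0), and just outside it NPY4 (0.99) and AT1G80440 (-0.99). Below the level filter, 161 loci were at least 2-fold higher and 99 at least 2-fold lower in the sterile array.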
